A study of Mus musculus with 6 samples.

Results

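The Wnt ligands, Frizzled receptors and Wnt modulators were compared between the telencephalons of 3 WT and 3 TSC1 mice at postnatal day 0. The genes were chosen by symbol, with earlier results of these data known. They were the Wnt, Fzd, Sfrp, Dkk and Rspo families, Axin1, Axin2, Lrp6 and Lef1, as listed in all 6 gene tables. This gave 42 of 22651 genes, namely 18 Wnt ligands, 10 Frizzled receptors, the co-receptor Lrp6, 6 secreted inhibitors of the Sfrp and Dkk families, 4 R-spondins and 3 intracellular genes. Wnt8b, Lrp5, Dkk1 and Sfrp5 were not among the genes listed in all 6 samples, so counts and sums by family leave them out. The WT mice had the genotype TSC1 flox/flox;Emx1 +/+ and the TSC1 mice TSC1 flox/flox;Emx1-cre/+, so that both groups carried the floxed alleles and only the TSC1 mice carried Cre. Cre was expressed from the Emx1 locus in the embryonic dorsal cortex, and the dissected telencephalon also holds cells that Cre does not reach. The deletion of Tsc1, the presence of Cre and the altered Emx1 allele go together in this design and cannot be told apart.

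Wnt proteins are secreted, lipid-modified ligands that bind Frizzled receptors together with the co-receptors Lrp5 and Lrp6. In the canonical branch, binding stops the Axin and Apc complex from degrading beta-catenin (Ctnnb1), which then acts with Lef1 and the Tcf factors on target genes such as Axin2. Sfrp proteins bind the ligands, Dkk proteins mostly act on the co-receptors, and R-spondins raise the number of receptors at the cell surface. In the developing forebrain, Wnt signals pattern the dorsal telencephalon, maintain progenitors and, through Wnt7a and Wnt7b, guide the growth of brain vessels.

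The total expected count per sample, the sum over genes of the reads RSEM assigned to each, ranged from 14119365 to 17772865, and 3 counts then correspond to 0.169 to 0.212 CPM (counts scaled by the library total). Tsc1 itself had 50.23, 31.99 and 28.42 TPM in WT replicates 1, 2 and 3 and 27.09, 21.73 and 22.42 TPM in the TSC1 replicates, where TPM is the length-corrected abundance scaled to the same total in every sample. Its log2 fold change was -0.66 (SE 0.175, edgeR quasi-likelihood test, Benjamini-Hochberg adjusted p = 0.10), and reads outside the deleted part still count toward this total. In both groups replicate 3 had the Y-linked transcripts Ddx3y and Eif2s3y (784 to 1665 counts) and the other replicates had none of either. On the first principal component TSC1 replicate 3 lay at -3.95, nearer to WT replicate 1 at -7.43 than to the other TSC1 samples at 26.5 and 30.3, and results that turn on it are given with and without it. The dorsal telencephalic gene Emx1 was well measured in every sample (36.2 to 47.4 TPM). Markers of neighbouring cell types differed between the groups. The summed TPM of 8 choroid plexus markers, mostly from Ttr, was 1183 to 2480 in WT and 35.6 to 873 in TSC1. That of 8 subpallial and striatal markers was 248 to 299 in WT and 132 to 189 in TSC1. No marker of either list was at 0, 1 marker of the subpallial list and 0 of the choroid plexus list had an adjusted p below 0.05, and 8 of 8 and 7 of 8 had an unadjusted p below 0.05. In bulk tissue, fewer cells of a type and less RNA per cell cannot be told apart.

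Most of the ligands were scarce, and all 10 receptors and 5 of the 6 secreted inhibitors could be tested, some of them at about 1 to 2 TPM. Of the 42 genes, 32 passed edgeR's filter on low counts, 12 had at least 10 TPM in every sample and 10 were too low to test. The 10 that were too low were Wnt1, Wnt2, Wnt3a, Wnt8a, Wnt9b, Wnt10a, Wnt10b, Wnt11, Rspo4 and Dkk4, with at most 15 counts in any sample. Dkk4 had no count in any sample, and Wnt8a had 1 count in 1 WT sample, both below 3 counts throughout. For these genes a difference between the groups was not detectable at this depth. Wnt1 and Wnt3a, ligands of the midbrain and of the cortical hem, had 1 to 5 and 0 to 5 counts per sample, respectively.

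Among the ligands, Wnt7b was the most abundant at 95.2 TPM on average over the 6 samples, followed by Wnt7a at 18.7 and Wnt5a at 12.9 TPM. Wnt7b alone made up 60.4 ± 4.6% (SD, n = 3) of the summed ligand TPM in WT and 63.8 ± 2.49% (SD, n = 3) for TSC1. Of the 18 ligands, 3 were above 10 TPM, 7 between 1 and 10 TPM and 8 below 1 TPM. Among the receptors Fzd3 led at 56 TPM, and the other Frizzled genes ranged from Fzd1 at 17.1 to Fzd5 at 1.15 TPM. Dkk3 (101 TPM) and Sfrp1 (68.4 TPM) were the leading secreted inhibitors, Rspo2 (17.9 TPM) and Rspo3 (10.8 TPM) the leading R-spondins, and Axin1 (41.1 TPM) exceeded Axin2 (17.7 TPM) and Lef1 (3.63 TPM).

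**Figure D1:**
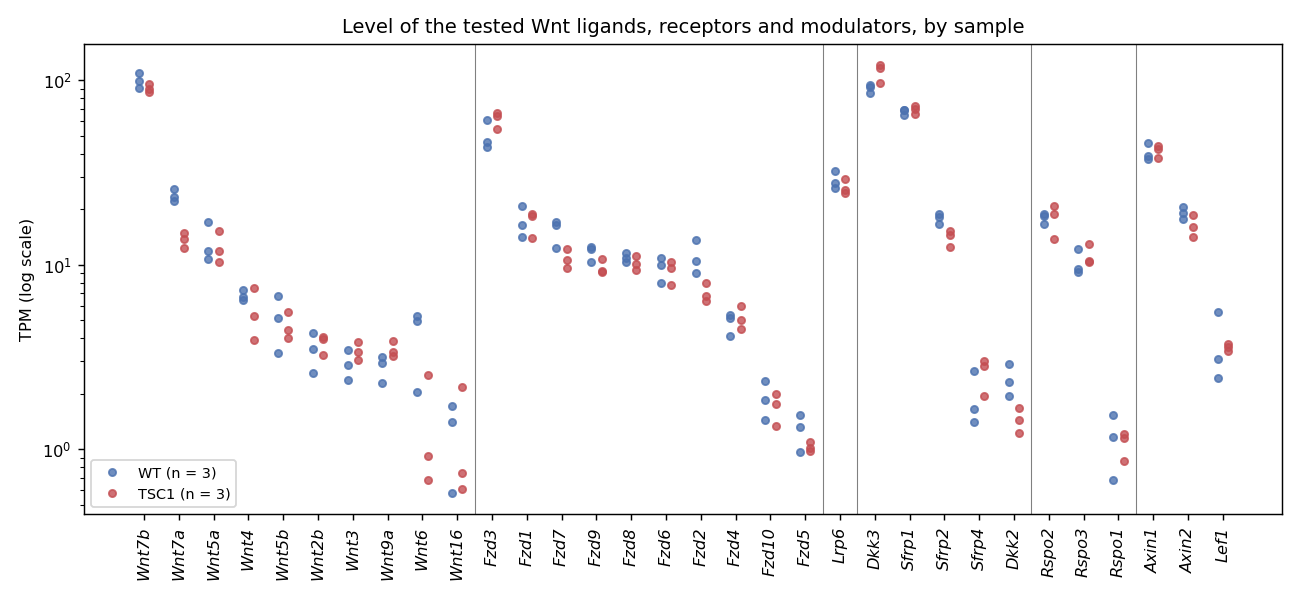
TPM on a log scale of the 32 tested genes in each WT (blue) and TSC1 (red) sample, grouped from left to right as ligands, Frizzled receptors, Lrp6, secreted inhibitors, R-spondins and intracellular genes. Wnt7b, Fzd3, Dkk3 and Sfrp1 lie highest, and the Wnt7a points of the TSC1 samples (12.42 to 14.93 TPM) lie below those of WT (22.06 to 25.68 TPM).

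Wnt7a was the only one of the 32 tested genes with an adjusted p below 0.05, and it fell in TSC1. By the edgeR test, adjusted over all genes, 0 members were called higher and 1 lower, against 1.52% of all 13969 tested genes called in either direction, 0.859% higher and 0.659% lower. At an unadjusted p below 0.05 there were 9 members, 2 higher and 7 lower. These 9 are 28.1% of the 32 tested members, where 18% of all tested genes reach this level; 9.04% of all genes do so as higher and 8.93% as lower, the latter against 21.9% of the members. DESeq2 called 0 members higher and 3 lower (Wnt7a, Fzd2 and Fzd7), against 4.55% of all genes called. The median log2 fold change was -0.12 over the tested members and -0.0027 over all tested genes, with 22 members below 0 and 10 above. The TPM of the groups did not overlap in 7 members (21.9%), 2 higher and 5 lower, against 22.7% of all tested genes, 12.3% higher and 10.3% lower.

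**Figure D2:**
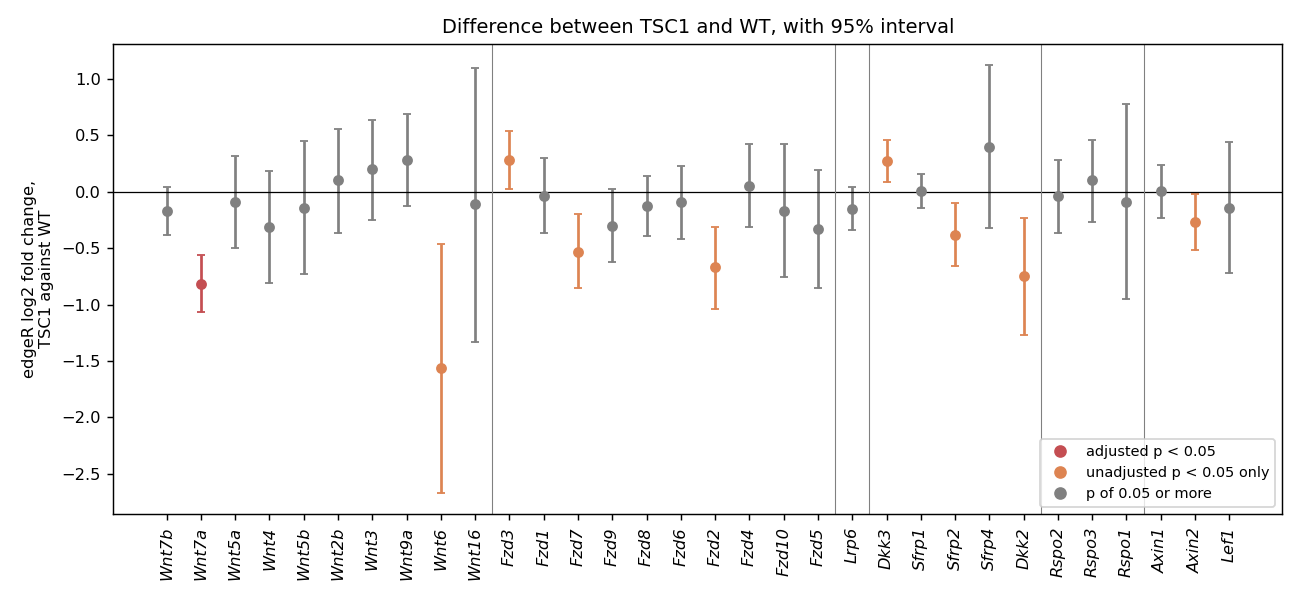
edgeR log2 fold change of TSC1 against WT for the 32 tested genes in the order of the plot of levels, with 95% intervals. Wnt7a, at -0.82, is the single gene with an adjusted p below 0.05, and the 8 genes with only an unadjusted p below 0.05 run from Wnt6 at -1.56 to Fzd3 at 0.28.

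Wnt7a is a ligand of cortical progenitors and lies on chromosome 6, from 91363981 to 91411363 on the minus strand (mm10). It had 25.68, 22.06 and 23.44 TPM in WT replicates 1, 2 and 3, from 466, 455 and 390 counts. In TSC1 replicates 1, 2 and 3 it had 12.42, 13.75 and 14.93 TPM, from 209, 220 and 273 counts. Every TSC1 sample lay below every WT sample. The mean was 23.7 ± 1.83 TPM (SD, n = 3) for WT and 13.7 ± 1.26 TPM (SD, n = 3) for TSC1, a log2 fold change of -0.82 (SE 0.112, 95% interval -1.07 to -0.56, edgeR adjusted p = 0.0158), or a decrease by 43.2%. Of the summed ligand TPM, Wnt7a was 14.4 ± 1.60% (SD, n = 3) for WT and 9.64 ± 0.819% (SD, n = 3) for TSC1. With each sample left out in turn its log2 fold change stayed between -0.89 and -0.74, and the adjusted p ranged from 0.00378 without TSC1 replicate 3 to 0.0942 without TSC1 replicate 1. The call was kept in 2 of these 6 fits and lost without WT replicate 2 (0.0606), WT replicate 3 (0.0727), TSC1 replicate 1 (0.0942) and TSC1 replicate 2 (0.0881). The fits that lost it called 29 to 37 genes over all tested genes, against 212 with all samples. The choroid plexus markers summed to 1710, 1183 and 2480 TPM in WT replicates 1, 2 and 3 and to 35.57, 112.2 and 872.6 TPM in the TSC1 replicates. Within TSC1 both this sum and Wnt7a were lowest in replicate 1 and highest in replicate 3. Within WT the sum was highest in replicate 3 and Wnt7a in replicate 1. The choroid plexus sum was mostly Ttr, with a mean of 1735 of 1791 TPM in WT and 323 of 340 TPM in TSC1. Within TSC1, Ttr, Kl, Folr1 and Otx2 were lowest in replicate 1, and Clic6, Aqp1, Kcnj13 and Prlr in replicate 2. Of 8 markers of pallial progenitors, none at 0, 2 had an unadjusted p below 0.05, both lower, and Sox2 was called (log2 fold change -0.47, edgeR adjusted p = 0.0297). Of all tested genes, 18% had an unadjusted p below 0.05, 8.93% as lower, and 1.52% were called. Of the 8, 6 had a log2 fold change below 0 and 2 above. Their summed TPM was 2772 to 3334 in WT and 2724 to 2868 in TSC1 and overlapped. This sum was mostly Fabp7, with a mean of 2610 of 3004 TPM in WT and 2443 of 2779 TPM in TSC1, so it says little about the other markers. The part of the progenitor, choroid plexus and subpallial markers in the fall of Wnt7a was not tested.

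Its close relative Wnt7b had 90.76, 109.63 and 98.82 TPM in WT and 86.37, 95.95 and 89.81 TPM in TSC1. The groups overlapped, and the log2 fold change was -0.17 (95% interval -0.38 to 0.04, edgeR adjusted p = 0.382). The TPM ratio of Wnt7a to Wnt7b was 0.283, 0.201 and 0.237 in WT and 0.144, 0.143 and 0.166 in TSC1, without overlap. All 42 genes had whole expected counts in all 6 samples, and the longest identical stretch between the main Wnt7a and Wnt7b transcripts of GENCODE M21 was 23 bases.

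**Figure D3:**
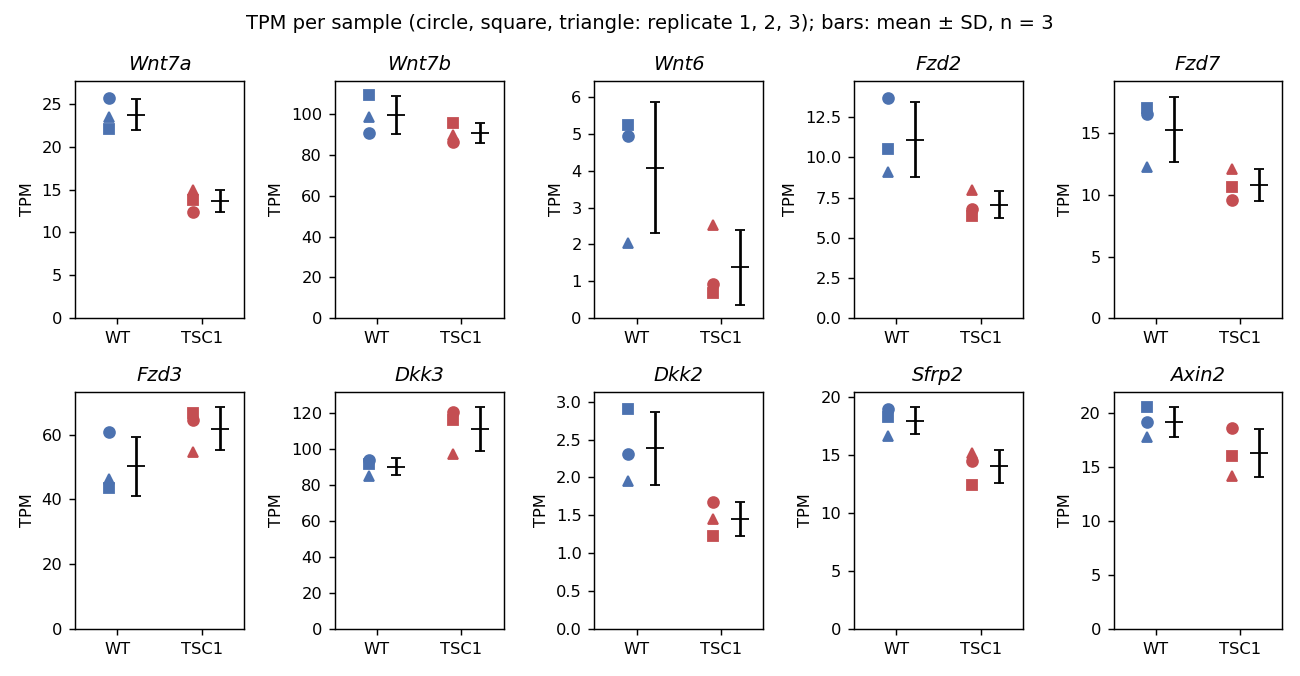
TPM of 10 genes in each sample (circle, square and triangle for replicates 1, 2 and 3), with the mean ± SD (n = 3) beside them. The groups are apart in Wnt7a, Fzd2, Fzd7, Dkk3, Dkk2 and Sfrp2 and overlap in Wnt7b, Wnt6, Fzd3 and Axin2.

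Promoter windows from 250 bases before to 50 bases after the start site were taken from RefSeq (GRCm38.p6) and matched 26 of the 42 genes, with 32 windows. The windows of Wnt7a, of Fzd7, a receptor described below, and of the canonical target Axin2 are printed. These are the called ligand, a receptor called by DESeq2 but not by edgeR, and the readout gene of the pathway. Fzd2, the other such receptor, had no matching window. The Fzd7 window follows the RefSeq start site and ends before the GENCODE gene start at 59482424. Capitals mark GGGCGG, a GC box, and its complement CCGCCC, and in Fzd7 also AACAAAG, the complement of the Tcf and Lef core CTTTGTT. Each is written 5′ to 3′ on the strand of its gene.
Wnt7a, chr6:91411304-91411603, minus strand: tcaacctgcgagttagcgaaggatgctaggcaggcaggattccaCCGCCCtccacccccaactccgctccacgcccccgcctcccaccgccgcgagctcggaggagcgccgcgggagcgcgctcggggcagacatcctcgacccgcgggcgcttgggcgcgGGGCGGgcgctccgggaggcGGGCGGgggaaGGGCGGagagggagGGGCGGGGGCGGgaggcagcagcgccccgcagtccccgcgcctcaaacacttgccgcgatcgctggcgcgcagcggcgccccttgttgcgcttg
Fzd7, chr1:59481897-59482196, plus strand: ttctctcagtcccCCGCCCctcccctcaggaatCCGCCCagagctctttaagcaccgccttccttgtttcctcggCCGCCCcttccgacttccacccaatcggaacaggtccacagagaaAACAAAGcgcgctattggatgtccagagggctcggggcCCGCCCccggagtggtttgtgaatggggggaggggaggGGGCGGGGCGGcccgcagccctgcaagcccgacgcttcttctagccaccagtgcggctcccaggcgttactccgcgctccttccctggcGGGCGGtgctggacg
Axin2, chr11:108920099-108920398, plus strand: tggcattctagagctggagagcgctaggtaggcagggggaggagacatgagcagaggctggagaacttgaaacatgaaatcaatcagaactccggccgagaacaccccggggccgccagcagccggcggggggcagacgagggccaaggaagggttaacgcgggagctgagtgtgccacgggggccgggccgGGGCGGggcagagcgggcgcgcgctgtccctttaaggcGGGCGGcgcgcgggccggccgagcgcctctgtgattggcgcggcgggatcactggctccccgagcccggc
These 3 windows hold 6, 7 and 2 GC boxes and 42, 24 and 31 CpG dinucleotides. A GC box on either strand occurred in 25 of the 32 windows of the Wnt genes (78.1%), against 35.7% of all 32851 windows, and the median number of CpG dinucleotides was 28.0 against 7. A Tcf and Lef core (the letters CTTTGAA, the letters CTTTGAT, the letters CTTTGTA or the letters CTTTGTT, on either strand) occurred in 5 windows (15.6%), against 16.9% of all windows. These 5 lie before a start site of Fzd7, Lef1, Wnt11 and Wnt5b and after that of Wnt3, and the printed Wnt7a and Axin2 windows have none of these letters.

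The other ligands did not pass the test. Wnt6, a ligand known from surface epithelia and low in brain, had 4.95, 5.25 and 2.05 TPM in WT and 0.92, 0.68 and 2.54 TPM in TSC1. The replicate 3 samples of both groups lay close together, and the others were far apart. The log2 fold change was -1.56 (SE 0.489, edgeR adjusted p = 0.142). Without TSC1 replicate 3 it was -2.38 (SE 0.475, edgeR adjusted p = 0.0229). The summed TPM of 8 meningeal markers was lowest in replicate 3 within WT and highest in replicate 3 within TSC1: it was 399.0, 405.1 and 246.6 in WT and 233.4, 136.2 and 332.4 in TSC1, and none of the 8 was at 0. In TSC1, Foxc1 and Slc6a13 were highest in replicate 1 instead. Their part in the Wnt6 values was not tested. The remaining 7 tested ligands (Wnt2b, Wnt3, Wnt4, Wnt5a, Wnt5b, Wnt9a and Wnt16) had log2 fold changes from -0.31 (Wnt4) to 0.28 (Wnt9a), and only in Wnt9a did the groups not overlap (2.30 to 3.16 TPM in WT and 3.19 to 3.87 TPM in TSC1). Wnt5a, the main ligand of the branch that works without beta-catenin, had 17.04, 11.88 and 10.8 TPM in WT and 15.26, 11.86 and 10.35 TPM in TSC1, with a 95% interval of the log2 fold change from -0.50 to 0.32. The summed ligand TPM was 165 ± 9.82 (SD, n = 3) for WT and 142 ± 2.09 (SD, n = 3) for TSC1, a difference of -14.0%, and the groups did not overlap. Most of this difference came from Wnt7a (mean 23.7 TPM in WT and 13.7 TPM in TSC1) and from Wnt7b (99.7 and 90.7 TPM), whose groups overlapped. Of the 10 tested ligands, 7 had a log2 fold change below 0 and 3 above.

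All 10 Frizzled receptors were tested and none was called by edgeR, while 3 (30.0%) had an unadjusted p below 0.05, against 18% of all tested genes. Fzd2, a receptor gene on chromosome 11 (102604396 to 102608058, plus strand), had 13.67, 10.55 and 9.08 TPM in WT and 6.8, 6.38 and 7.98 TPM in TSC1. The groups did not overlap, although TSC1 replicate 3 came near WT replicate 3. The log2 fold change was -0.67 (SE 0.162, edgeR adjusted p = 0.0754). Fzd7, a receptor of the same subfamily on chromosome 1 (59482424 to 59486955, plus strand), had 16.54, 17.01 and 12.27 TPM in WT and 9.6, 10.62 and 12.13 TPM in TSC1. Here the 2 replicate 3 samples nearly met, and the log2 fold change was -0.53 (SE 0.144, edgeR adjusted p = 0.105). Both passed with DESeq2, at an adjusted p of 0.0173 for Fzd2 and 0.0310 for Fzd7, and both passed with edgeR without TSC1 replicate 3, at -0.79 (adjusted p = 0.0328) and -0.63 (adjusted p = 0.0421).

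Fzd3, which works in axon guidance and planar cell polarity, stood the other way. It had 60.68, 43.57 and 46.32 TPM in WT and 64.43, 66.68 and 54.46 TPM in TSC1, and WT replicate 1 lay within the TSC1 range. Its log2 fold change was 0.28 (SE 0.114, edgeR adjusted p = 0.240). The sum over the 10 receptors was 134 ± 18.9 TPM (SD, n = 3) for WT and 134 ± 8.44 TPM (SD, n = 3) for TSC1, a difference of -0.201%. It was 8.99% in TMM-normalized CPM, which are not divided by length, and ranged from -5.67% to 8.31% with a sample left out, so that its direction was not fixed. Fzd3 held 37.4 ± 3.0% (SD, n = 3) of it in WT and 46.2 ± 2.02% (SD, n = 3) for TSC1. The TPM ratio of Fzd2 to Fzd3 was 0.225, 0.242 and 0.196 in WT and 0.106, 0.0957 and 0.147 in TSC1. Fzd1, the second receptor in abundance, had 20.9, 16.46 and 14.1 TPM in WT and 18.32, 18.85 and 13.94 TPM in TSC1. The other 6 receptors (Fzd4, Fzd5, Fzd6, Fzd8, Fzd9 and Fzd10) had log2 fold changes between -0.33 (Fzd5) and 0.05 (Fzd4), with overlapping groups. The co-receptor Lrp6 had 32.19, 27.95 and 26.23 TPM in WT and 29.33, 25.49 and 24.39 TPM in TSC1, at a log2 fold change of -0.15 (95% interval -0.34 to 0.04).

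The secreted inhibitors were not all on the same side, and none of the 5 that were tested was called. Dkk3, a neuronal member of the Dkk family that differs from the others in not binding the co-receptors, had 94.12, 91.8 and 84.98 TPM in WT and 120.64, 116.16 and 97.13 TPM in TSC1. Every TSC1 sample lay above every WT sample, and the log2 fold change was 0.27 (SE 0.0817, edgeR adjusted p = 0.128). Without TSC1 replicate 3 it was 0.35 (SE 0.0721, edgeR adjusted p = 0.0252). Without replicate 3 of both groups it was 0.33 (SE 0.0913, edgeR adjusted p = 0.0841) and was not called. Dkk2, a ligand of the co-receptors, had 2.31, 2.9 and 1.95 TPM in WT and 1.68, 1.23 and 1.45 TPM in TSC1, without overlap, at a log2 fold change of -0.75 (SE 0.229, edgeR adjusted p = 0.134).

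Sfrp2, a ligand-binding inhibitor of progenitor zones, had 18.98, 18.25 and 16.66 TPM in WT and 14.5, 12.43 and 15.18 TPM in TSC1. All TSC1 values were below the lowest WT value, and the log2 fold change was -0.38 (SE 0.125, edgeR adjusted p = 0.155). Its relative Sfrp1, also made by cortical progenitors, was level at 68.75, 69.07 and 64.84 TPM in WT and 70.13, 72.3 and 65.58 TPM in TSC1, at a log2 fold change of 0.01 and a narrow 95% interval from -0.14 to 0.16. Sfrp4 was low, at 1.41 to 3.01 TPM over the 6 samples. The summed TPM of the inhibitors was 180 ± 8.70 (SD, n = 3) for WT and 199 ± 14.5 (SD, n = 3) for TSC1 and overlapped.

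The R-spondins and the intracellular genes showed no called difference. Rspo2 had 18.48, 18.84 and 16.73 TPM in WT and 18.86, 20.84 and 13.87 TPM in TSC1, and Rspo3, an R-spondin known from the cortical hem, had 9.55, 9.17 and 12.17 TPM in WT and 12.92, 10.33 and 10.43 TPM in TSC1. Their log2 fold changes were -0.04 (95% interval -0.37 to 0.28) and 0.10 (95% interval -0.27 to 0.46), and Rspo1 was low at 0.680 to 1.54 TPM. Markers of the cortical hem and of Cajal-Retzius cells overlapped as well, with 170 to 295 TPM in WT and 186 to 243 TPM in TSC1 in sum. Most of this sum was Reln, with a mean of 118 of 215 TPM in WT and 114 of 216 TPM in TSC1. It says little about the low markers, such as Lmx1a at 0.460 to 1.15 TPM. Of the 8 markers, 0 had an unadjusted p below 0.05, against 18% of all tested genes.

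Axin2, the feedback inhibitor whose transcription rises with canonical signaling, had 19.16, 20.57 and 17.77 TPM in WT and 18.58, 15.96 and 14.17 TPM in TSC1. TSC1 replicate 1 lay within the WT range and the other TSC1 samples below it. The log2 fold change was -0.27 (SE 0.110, edgeR adjusted p = 0.242). Axin1, the constitutive scaffold of the destruction complex, had 37.3, 45.54 and 39.16 TPM in WT and 42.46, 38.01 and 44.33 TPM in TSC1, with a 95% interval of the log2 fold change from -0.23 to 0.24. Lef1, the nuclear partner of beta-catenin, had 5.54, 3.07 and 2.43 TPM in WT and 3.71, 3.41 and 3.6 TPM in TSC1. The spread of Lef1 within WT exceeded the difference between the groups, and the 95% interval was wide, from -0.72 to 0.44.

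**Figure D4:**
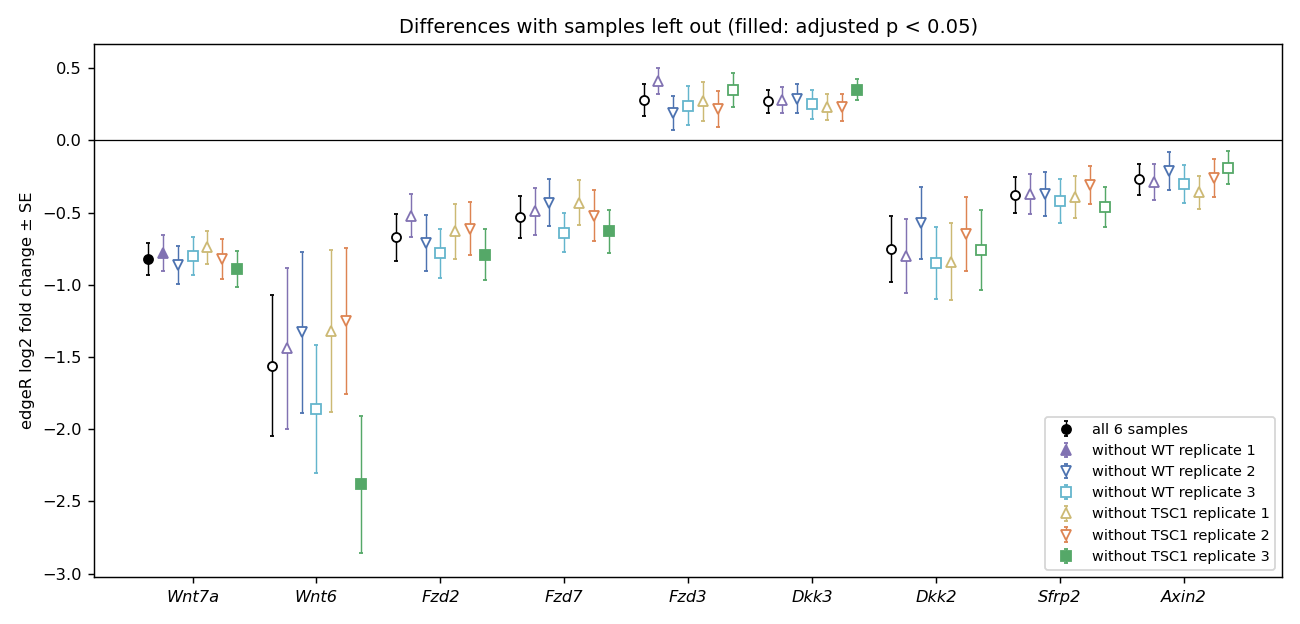
edgeR log2 fold change ± SE of the 9 genes with an unadjusted p below 0.05, with all 6 samples and with each sample left out in turn; filled symbols have an adjusted p below 0.05. Wnt7a lies between -0.89 and -0.74 throughout, and the values of Wnt6, Fzd2, Fzd7 and Dkk3 are filled only without TSC1 replicate 3.

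The 9 genes kept their direction in all 6 fits that left out a sample, but the number of calls among the members ranged from 0 to 4 lower and from 0 to 1 higher. Without TSC1 replicate 3, edgeR called 4 members lower (Wnt7a, Wnt6, Fzd2 and Fzd7) and 1 higher (Dkk3), against 5.68% of all tested genes called in that fit. This fit left a sample with the Y-linked transcripts in WT only. Without replicate 3 of both groups the same 4 were called lower and 0 higher, where 434 of 14000 tested genes were called. Without WT replicate 2, WT replicate 3, TSC1 replicate 1 or TSC1 replicate 2 no member was called. Few genes of any kind were called in these fits: 29 of 14073, 35 of 14114, 37 of 14139 and 37 of 14142 tested genes, respectively.

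Around these families, 69 other genes of the Wnt pathway were listed by role, and 66 passed the filter. Lrp4, a relative of Lrp6 that binds the Wnt antagonist sclerostin and organises synapses, was the only one with an adjusted p below 0.05, and it rose. It lies on chromosome 2 (91457511 to 91513779, plus strand). It had 9.98, 7.95 and 7.84 TPM in WT and 18.82, 15.86 and 13.82 TPM in TSC1, so that the groups were well apart. The log2 fold change was 0.89 (SE 0.129, edgeR adjusted p = 0.0195), and with each sample left out it stayed between 0.78 and 0.99, with an adjusted p from 0.00260 to 0.125. The call was lost without WT replicate 2 or 3 and without TSC1 replicate 1 or 2, with edgeR adjusted p-values of 0.125, 0.0910, 0.121 and 0.0944. The fits that lost it called 29 to 37 genes over all tested genes.

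Of the 66 genes, 22 had an unadjusted p below 0.05, 11 higher and 11 lower, and the median log2 fold change was -0.02. The 22 are 33.3% of these genes, where 18% of all tested genes reach this level. DESeq2 called 3 of them higher (Lrp4, Celsr1 and Celsr2) and 1 lower (Wls), against 4.55% of all genes called in either direction. Wls, the carrier that brings Wnt ligands to the cell surface, had 60.01, 52.86 and 43.94 TPM in WT and 39.83, 32.47 and 41.15 TPM in TSC1, without overlap. Its log2 fold change was -0.49 (SE 0.122, edgeR adjusted p = 0.0828), and without TSC1 replicate 3 it was -0.57 (edgeR adjusted p = 0.0356). Beta-catenin (Ctnnb1) was abundant at 805.27, 795.69 and 783.07 TPM in WT and 726.56, 761.24 and 777.56 TPM in TSC1, at a log2 fold change of -0.09 (SE 0.0679, edgeR adjusted p = 0.502).

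By role, the genes named next were singled out after their values were seen. Among 11 planar polarity genes, 5 had an unadjusted p below 0.05 with higher values in TSC1 and 1 with lower values, where 9.04% and 8.93% of all tested genes do so. With all 6 samples edgeR called none, while DESeq2 called Celsr1 and Celsr2. Without TSC1 replicate 3, edgeR called Celsr1, Celsr2 and Prickle2 higher, against 5.68% of all tested genes called. Without WT replicate 1 it called Celsr2, where 447 of 14067 tested genes were called. The fits without another sample, or without replicate 3 of both groups, called no planar polarity gene. All 3 seven-pass cadherins of this branch stood higher: Celsr1 at 0.38 (edgeR adjusted p = 0.0901), Celsr2 at 0.35 (adjusted p = 0.0947) and Celsr3 at 0.26 (adjusted p = 0.115), with TPM groups that did not overlap. The 10 listed canonical targets all had a log2 fold change below 0, with a median of -0.30, but edgeR and DESeq2 called none. At an unadjusted p below 0.05 there were 2 of the 10, or 20%, close to the 18% of all tested genes. These 2 were the transcription factors Sp5, at 2.95, 5.33 and 3.12 TPM in WT and 1.54, 1.72 and 2.26 TPM in TSC1 (edgeR adjusted p = 0.117), and Tcf7, at 10.16, 8.79 and 8.33 TPM in WT and 7.31, 4.83 and 5.55 TPM in TSC1 (adjusted p = 0.102). Of all tested genes, 50.7% had a log2 fold change below 0. Gpr124 and Reck act together in the response of brain vessels to Wnt7a and Wnt7b. They had log2 fold changes of -0.55 (edgeR adjusted p = 0.209) and -0.37 (adjusted p = 0.239) with overlapping groups. The summed TPM of 8 endothelial markers, none at 0, was 247 to 312 in WT and 224 to 265 in TSC1. Of these 8 markers, 4 had an unadjusted p below 0.05, all lower in TSC1, where 8.93% of all tested genes do so as lower. None of the 8 was called by edgeR, and their part in the values was not tested. Sostdc1, a secreted antagonist also made by the choroid plexus, had 6.38, 6.23 and 11.38 TPM in WT and 3.83, 3.22 and 5.64 TPM in TSC1 (edgeR adjusted p = 0.168), and the choroid plexus markers summed to 1710, 1183 and 2480 TPM in WT and 35.57, 112.2 and 872.6 TPM in TSC1. Most of this sum was Ttr, and the part of the choroid plexus markers in the Sostdc1 values was not tested.

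**Figure D5:**
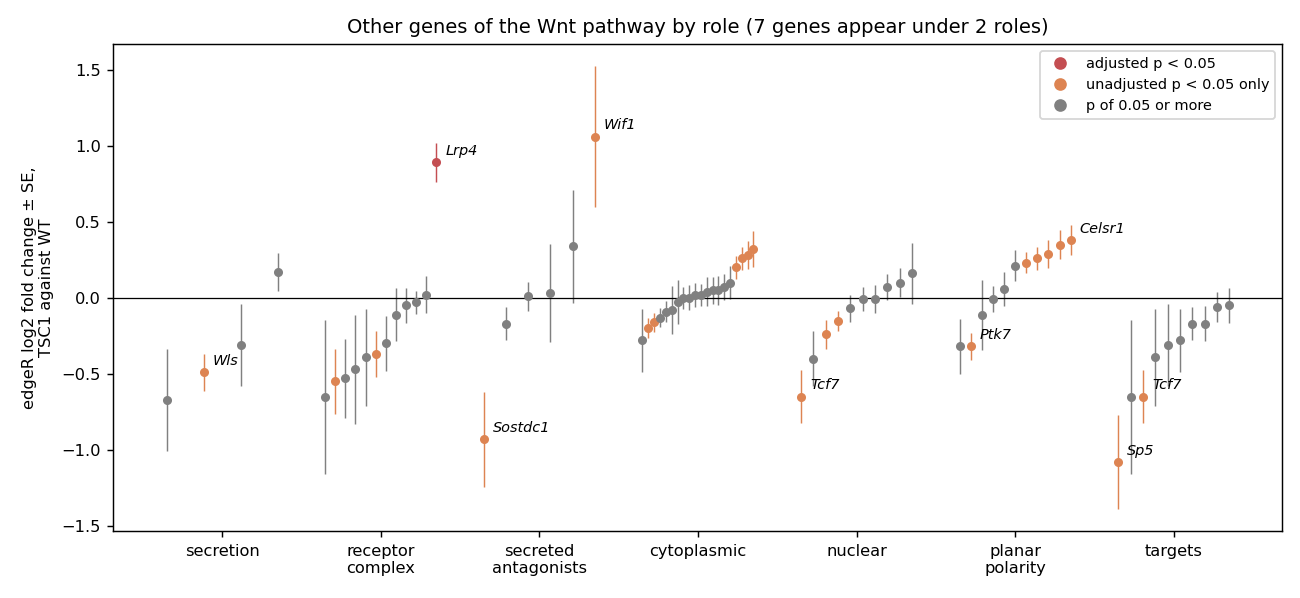
edgeR log2 fold change ± SE of the 66 tested other genes of the Wnt pathway by role, each role sorted by value, with 7 genes that appear under 2 roles. Lrp4, at 0.89, is the only gene with an adjusted p below 0.05, and all 10 targets lie below 0.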

How the data were processed

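RNA from the telencephalons of 3 WT and 3 TSC1 mice was sequenced, 1 library per mouse. Per the labels and the study's methods, the authors checked reads with FastQC, trimmed them, mapped them to mm10 (Mapsplice2) and ran RSEM 1.2.12 on RefSeq transcripts, whose release is not given in the sources used here. The deposited expected counts are RSEM estimates without normalization, and the deposited TPM and FPKM are divided by effective length and scaled per sample by RSEM. Groups and replicate numbers were taken from the sample titles.

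After rounding of the expected counts, the edgeR 4.0.16 quasi-likelihood test (R 4.3.3, TMM, filterByExpr) was run over all genes, with p-values adjusted by the Benjamini-Hochberg method and a call made below 0.05. TPM is given as a level, and fold changes come from the counts. The p-values measure the spread between these 3 mice per group. Totals of 14119365 to 17772865 counts limit the low genes. Named are the members with an unadjusted p below 0.05, the 2 most abundant of each class, Axin2 and Lef1, and of the other pathway genes those called, Ctnnb1 and Wls; a few more are named as chosen after their values were seen. Members, lists and tests were chosen with earlier results of these data known. No test was made over the members as a set. Alternatives were RLE and upper quartile normalization, DESeq2 1.42.0, limma 3.58.1 on log2(TPM + 1) of genes with at least 1 TPM in at least 3 samples, other filters, effective lengths as offsets, a replicate block, and samples left out. Positions are from GENCODE M21 (GRCm38, the assembly of mm10), and promoters from RefSeq. The median difference between length and effective length, over long genes, was 45.81 to 49.7 bases in WT and 55.08 to 57.62 bases in TSC1. All pairs of samples within a group were distinct libraries (chi-square per degree of freedom 5.68 to 17.4). The scripts were tested on simulated data.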

Additional observations from a re-analysis of the deposited data

How the results depend on the processing

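Wnt7a and Lrp4 were called under all 8 alternatives that used all 6 samples. The count of members called lower (1) became 3 with DESeq2 and 4 without replicate 3 of both groups, and ranged from 0 to 4 with each sample left out; the count called higher (0) ranged from 0 to 1. Other pathway genes called higher (1) were 3 with DESeq2, 4 with the replicate block and 0 to 5 with a sample left out, and those called lower (0) were 1 with DESeq2, 1 with the block, 2 without replicate 3 of both groups and 0 to 1 with a sample left out. Over all genes, 212 calls became 636 with DESeq2, 346 without a filter, 551 with the block, 434 without replicate 3 of both groups and 29 to 799 with a sample left out. Tsc1 (-0.66) passed with DESeq2 (-0.65), with the block (-0.63) and without replicate 3 of both groups (-0.76), and ranged from -0.79 to -0.40 with a sample left out. Values near 0 changed sign: Axin1 at -0.03 and Sfrp1 at -0.02 under upper quartile normalization, Lef1 at 0.02 with limma, and Axin1 at -0.07 and Rspo2 at 0.07 without replicate 3 of both groups. With a sample left out, Axin1 ranged from -0.08 to 0.10, Fzd1 from -0.14 to 0.10, Lef1 from -0.33 to 0.21, Rspo2 from -0.18 to 0.10, Rspo3 from -0.00011 to 0.25 and Sfrp1 from -0.03 to 0.04. Upper quartile normalization moved the median of all genes to -0.0336. The 42 genes included 32 with at least 1 TPM in 3 samples and 29 with at least 10 counts in every sample. The causes were not tested.

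The replicate numbers are shared by both groups but were not shown to pair the samples: deviations from the group means correlated at 0.267, -0.133 and 0.318 for replicates 1, 2 and 3, and 4 of 6 samples correlated best with their own number. With the replicate block, Wnt7a stayed the only member called, at -0.82. The other pathway genes called with it were Celsr2, Celsr3, Lrp4 and Prickle2 as higher and Sostdc1 as lower.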
